A study of Mus musculus with 8 samples.

Results

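The COUP-TF genes Nr2f1, Nr2f2 and Nr2f6 and the tailless gene Nr2e1 encode orphan nuclear receptors. They were measured in labelled hypothalamic neurons of 3 nuclei: the arcuate nucleus (Arc), the ventromedial hypothalamus (VMH) and the dorsomedial hypothalamus (DMH). The 4 genes were taken by name from the array, which holds 34836 gene names, and were read by 5 probes, with 2 probes for Nr2f1. All 4 were among the 27434 genes that passed the filter on dim probes. That filter kept the probes whose spots stood well above background throughout 1 nucleus or more. Nr2e1 passed only through the DMH, and Nr2f2 only through the VMH and the DMH. These genes were chosen by their levels on these same arrays, in part for how they differed between the nuclei, so their values are given as a description, with no test.

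All mice were labelled female, aged 2 months, and of the cross Nkx2-1-CreERT2 x Rosa-ZsGreen. Tamoxifen activated the Cre, which is driven by Nkx2-1, a homeobox gene of the developing ventral hypothalamus, and the recombined cells then made the green protein ZsGreen, which marks cells that expressed the driver when tamoxifen acted. Fluorescent neurons were cut out by laser and pooled, and their RNA was hybridised to 2 arrays for the Arc, 3 for the VMH and 3 for the DMH. The 3 groups shared genotype, treatment, sex and age, and no unlabelled cells and no whole tissue were analysed here. The time of the injection and the animals behind each pool are not given in the sources used here, so p-values measure the spread between these arrays, which may be technical. In pooled cells, fewer cells of a type and less RNA per cell cannot be told apart.

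COUP-TFs are transcription factors of the steroid receptor superfamily that bind direct repeats of the AGGTCA half-site, as homodimers or with retinoid X receptors, and often repress by recruiting corepressors. Nr2f1 (COUP-TFI) and Nr2f2 (COUP-TFII) are known for regional patterning and migration in the developing forebrain, and Nr2f2 also for venous endothelium. Nr2f6 (EAR2) is the more distant member of the family. Nr2e1 (tailless, TLX) is a repressor known from neural stem cells and retina that binds a site with the core AAGTCA.

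The 5 probes are printed because the whole account of the 4 genes rests on them. Each is 60 bases long. The first 30 bases are shown 5′ to 3′ in lower case, with the position in mm9, the build that the file headers name. All 5 lie on the minus strand in the transcripts of their genes. Whether each lies in coding sequence or in a UTR was not analysed here.
Nr2f1, 1st probe, chr13:78328723-78328782: ctgatctgtaagtacattggaaaggaaaga
Nr2f1, 2nd probe, chr13:78328290-78328349: atttttgatataaccctttgcttcttataa
Nr2f2, chr7:77496873-77496932: ggcccttttccttgtttgctttgtgttagc
Nr2f6, chr8:73898098-73898157: tgtcatgggtatctggaaaggccactgcag
Nr2e1, chr10:42281826-42281885: gcttagcataggatgagtcaaacttctctt
The 2 Nr2f1 probes start at bases 1883 and 2316 of the transcript, the Nr2f2 probe at base 4119, the Nr2f6 probe at base 2078 and the Nr2e1 probe at base 3124, as the files give them. Over their whole length no 2 of these probes shared a run of more than 8 bases. The probes of the related genes Nr2f1 and Nr2f2 thus had no long stretch in common.

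A level is the log2 signal of a probe minus the 75th percentile of its array, so a level of 0 equals that percentile. The percentile lay between 1806 and 2036 intensity units on the Arc and VMH arrays and between 2107 and 3042 on the DMH arrays. From 72.4% to 78.7% of the probes were well above background. Arrays of the same nucleus correlated at 0.940 to 0.964 across genes, which are not independent replicates. The signal of the 8 neuronal markers, summed in units of the percentile, was between 167 and 252, and all 8 markers were detected above background throughout. The 8 microglial markers summed to 212 to 243 in the Arc, 159 to 188 in the VMH and 112 to 150 in the DMH. At least 7 of them were well above background on every array. The part of other cell types in the pools was not tested. The 9 Arc markers summed to between 156 and 201 in the Arc and to at most 23.4 elsewhere. The 9 VMH markers summed to between 47.6 and 53.3 in the VMH and to at most 9.1 elsewhere, and the 8 DMH markers to between 34.7 and 40.7 in the DMH and to at most 8.3 elsewhere.

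Nr2f2 went from no detected signal in the Arc to a level above the 75th percentile in the VMH and the DMH. Its probe stood at a level of -6.11 on both Arc arrays, or 26.4 and 26.2 intensity units, and was well above background on neither. The VMH arrays read 1.11, 0.71 and 1.10, and the DMH arrays 0.95, 0.47 and 0.26. All 6 were well above background, and none came near the Arc arrays. The mean level was 0.98 ± 0.23 (SD, n = 3) in the VMH and 0.56 ± 0.35 (SD, n = 3) in the DMH. Neither Arc value was well above background, so the folds were computed against the lowest signal well above background on each Arc array. On that basis Nr2f2 was 74.4-fold higher in the VMH than in the Arc and 55.8-fold higher in the DMH. On Arc replicate 1 that lowest signal stood at -5.32, yet the Nr2e1 probe missed the flag there at -3.82. These folds are therefore not lower limits, and they depend on the processing. The computed log2 differences were 7.08 ± 0.24 (SE) and 6.67 ± 0.24 (SE). The 2 Arc values added almost no spread (SD 0.0021), so these SE do not measure the uncertainty of the Arc level. The DMH was lower than the VMH by a log2 difference of -0.41 ± 0.22 (SE), and the arrays of these 2 nuclei overlapped.

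The size of the difference of Nr2f2 from the Arc moved with the background correction and its offset. With the normexp correction and an offset of 50 intensity units, in place of the scanner's own, it was 3.83 for the VMH and 3.47 for the DMH. An offset added to every signal makes log2 differences from a dim signal smaller. Its part was not separated from that of the correction, here or in the other normexp values. Nr2f2 is also a gene of venous endothelium. Of 13 vascular markers, 10 to 11 were well above background on the Arc arrays, 10 on each VMH array and 11 to 12 on the DMH arrays. Their summed signal was 7.0 to 8.0 in the Arc, 5.7 to 6.3 in the VMH and 5.1 to 6.2 in the DMH. The part of these markers in the level of Nr2f2 was not tested.

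**Figure D1:**
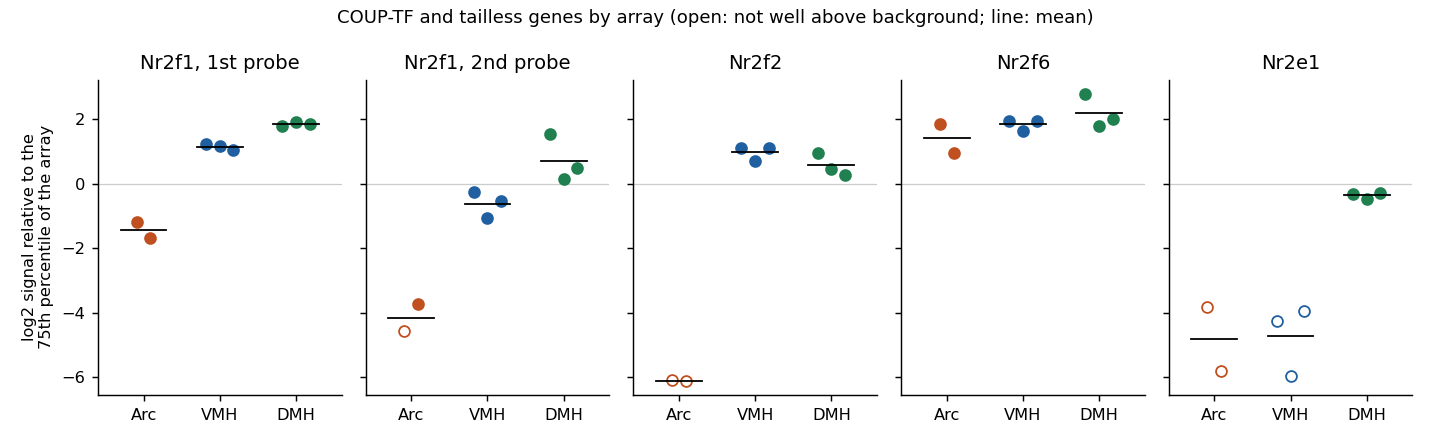
Level of each of the 5 probes on each array (log2 signal relative to the array's 75th percentile), by nucleus, with open points for values not well above background and a line at the mean. The Nr2f2 points of the VMH and DMH lie between 0.26 and 1.11 with both Arc points at -6.11, and Nr2e1 has filled points in the DMH alone.

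Nr2f1 was present in all 3 nuclei and was ordered Arc, VMH, DMH from low to high by both of its probes. The 1st probe read -1.18 and -1.70 on the Arc arrays, then 1.22, 1.18 and 1.04 in the VMH, and 1.79, 1.90 and 1.85 in the DMH. It was well above background on all 8 arrays, and no 2 nuclei overlapped. The means were -1.44 ± 0.37 (SD, n = 2) in the Arc, 1.15 ± 0.09 (SD, n = 3) in the VMH and 1.85 ± 0.05 (SD, n = 3) in the DMH. Nr2f1 was 6.01-fold higher in the VMH than in the Arc, a log2 difference of 2.59 ± 0.16 (SE). It was 9.81-fold higher in the DMH than in the Arc, a log2 difference of 3.29 ± 0.16 (SE). The step from the VMH to the DMH was smaller, at 1.63-fold or 0.71 ± 0.15 (SE) on the log2 scale.

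The 2nd Nr2f1 probe gave the same order. It read -4.57 and -3.74 in the Arc, where it was well above background on 1 of 2 arrays. It read -0.27, -1.06 and -0.54 in the VMH and 1.53, 0.13 and 0.48 in the DMH. Again no 2 nuclei overlapped, although the lowest DMH array stood 0.40 above the highest VMH array. The log2 differences were 3.54 ± 0.54 (SE) between the VMH and the Arc, 4.87 ± 0.54 (SE) between the DMH and the Arc, and 1.33 ± 0.48 (SE) between the DMH and the VMH. Both probes read transcript of 1 gene, so they are not separate replicates. With the normexp correction the differences from the Arc were 2.18 and 2.87 for the 1st probe and 1.92 and 3.07 for the 2nd.

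Nr2e1 was well above background in the DMH and in neither other nucleus. The DMH arrays read -0.31, -0.47 and -0.30, a mean of -0.36 ± 0.09 (SD, n = 3), from 1675 to 2449 intensity units. The Arc arrays read -3.82 and -5.81, and the VMH arrays -4.27, -5.98 and -3.94, none of them well above background. The 3 DMH arrays lay close together and did not overlap with the others. Nr2e1 was 17.5-fold higher in the DMH than in the Arc and 16-fold higher than in the VMH. For these folds, values under the lowest signal well above background on their array were raised to it. Other values not well above background were used as measured, so these folds are not lower limits. The measured log2 differences were 4.45 ± 0.85 (SE) and 4.37 ± 0.76 (SE), both taken against signals not well above background. Nr2e1 was not well above background in the Arc or the VMH, so no fold is given between them, and their measured values overlapped. Its spots read 128.8 and 32.1 intensity units in the Arc and 105.3, 29.7 and 128.8 in the VMH. The flag does not show that signal was absent there. With the normexp correction the differences were 2.12 from the Arc and 2.26 from the VMH.

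Nr2e1 is also known from neural stem cells and glia, so the glial lists were read beside it. Of 11 astrocyte markers, 9 to 10 were well above background on the Arc and VMH arrays and 10 to 11 on the DMH arrays. Their summed signal was 52.5 to 59.9 in the Arc, 55.1 to 68.1 in the VMH and 49.1 to 60.1 in the DMH. Aldoc, named after its values were seen, made up most of each sum. It read 5.51 and 5.34 in the Arc, 5.38, 5.44 and 5.62 in the VMH, and 4.93, 5.25 and 5.33 in the DMH. The median difference of the 10 tested astrocyte markers was 0.52 between the DMH and the Arc and 0.42 between the DMH and the VMH, with none past the test in either comparison. Of these 10, 9 were higher and 1 lower in the DMH than in the Arc, and 8 were higher and 2 lower than in the VMH. Sox9, a glial and stem cell transcription factor named after its values were seen, was well above background on 3 of 3 DMH arrays, 1 of 3 VMH arrays and 1 of 2 Arc arrays. The 9 markers of tanycytes and ependymal cells, which line the ventricle, summed to 5.3 to 5.8 in the Arc, 4.3 to 5.2 in the VMH and 2.5 to 4.3 in the DMH, with 8, 7 to 9 and 6 to 7 of them well above background. The sums in the DMH, where Nr2e1 was detected, lay below those in the Arc and overlapped those in the VMH. Col23a1 made up the largest part of the Arc sums. It read 1.79 and 1.31 in the Arc and -0.07, -0.61 and -1.16 in the DMH. Ccdc153 went the other way, at -0.05 and -0.32 in the Arc and 1.20, 0.73 and 0.23 in the DMH. Both were named after their values were seen. Of the 8 tested markers, 3 were higher and 5 lower in the DMH than in the Arc. The part of these markers in the level of Nr2e1 was not tested.

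Nr2f6 was well above background on all 8 arrays and overlapped between every pair of nuclei. It read 1.85 and 0.96 in the Arc, 1.94, 1.62 and 1.94 in the VMH, and 2.77, 1.80 and 2.01 in the DMH. The order of the means was again Arc, VMH, DMH, at 1.41 ± 0.63 (SD, n = 2), 1.83 ± 0.19 (SD, n = 3) and 2.19 ± 0.51 (SD, n = 3). The differences between these means were not tested. The log2 differences were 0.43 ± 0.41 (SE) between the VMH and the Arc, 0.79 ± 0.41 (SE) between the DMH and the Arc, and 0.36 ± 0.36 (SE) between the DMH and the VMH. The highest value came from DMH replicate 1 and the lowest from Arc replicate 2. Without DMH replicate 1 the DMH exceeded the VMH by 0.07. Without Arc replicate 2 the VMH stood at -0.021 against the Arc and the DMH 0.34 above it.

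Read together, the 4 genes made 3 patterns. Nr2f1 and Nr2f2 were low or undetected in the Arc and well above background in the other 2 nuclei, Nr2e1 was detected in the DMH, and Nr2f6 overlapped throughout. All VMH arrays exceeded all Arc arrays for 2 of the 4 genes, against 16.5% of all genes. All DMH arrays exceeded all Arc arrays for 3 of the 4, against 13.6% of all genes. All DMH arrays exceeded all VMH arrays for 2 of the 4, against 9.19%. These counts restate the differences for which the genes were chosen, and nothing is read from them.

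**Figure D2:**
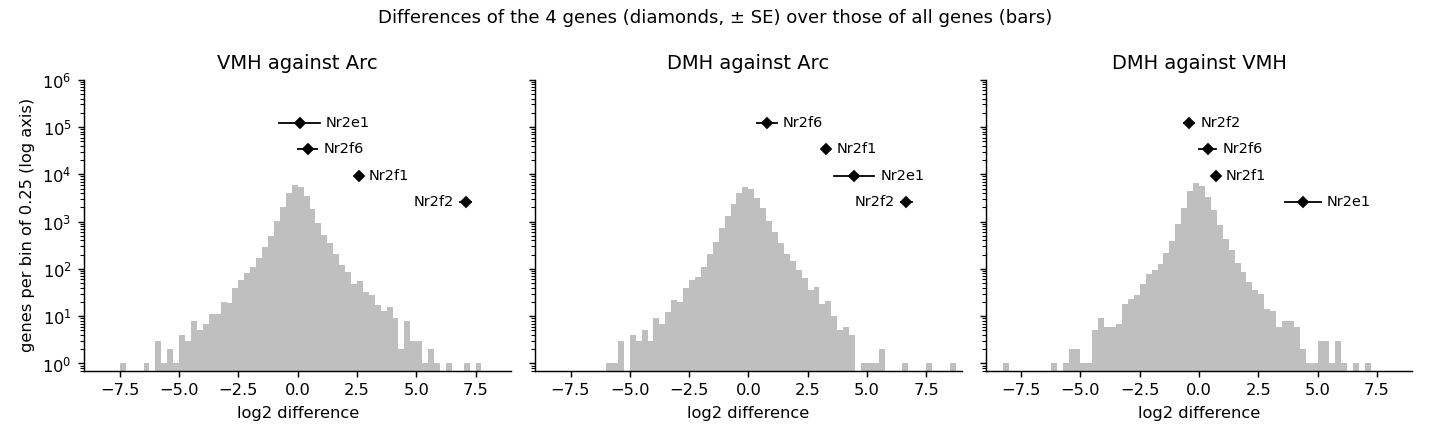
Log2 difference of each of the 4 genes (diamonds, ± SE) for each pair of nuclei, above the number of genes in each bin of 0.25 (bars, log axis); the height of the diamonds has no meaning. Nr2f2 lies at 7.08 and 6.67 in the comparisons with the Arc, measured against a signal not well above background there, and at -0.41 between the DMH and the VMH.

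The promoters of the 3 genes that differed between nuclei are printed for their sequence around the start of transcription. Each runs from 250 bases before to 30 bases after the start, 5′ to 3′, in the RefSeq tables for GRCm38.p6, a later build than that of the probes, so their positions are not to be set against the probe positions. Capitals mark a match to AAGTCA, the core of the tailless site.
Nr2e1, chr10:42583561-42583840, minus strand: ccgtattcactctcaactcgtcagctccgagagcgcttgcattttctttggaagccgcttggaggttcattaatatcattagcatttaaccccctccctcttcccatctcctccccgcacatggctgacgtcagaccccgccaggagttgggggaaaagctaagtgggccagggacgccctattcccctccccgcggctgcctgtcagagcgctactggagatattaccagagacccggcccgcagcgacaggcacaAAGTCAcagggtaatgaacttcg
Nr2f1, chr13:78198844-78199123, minus strand: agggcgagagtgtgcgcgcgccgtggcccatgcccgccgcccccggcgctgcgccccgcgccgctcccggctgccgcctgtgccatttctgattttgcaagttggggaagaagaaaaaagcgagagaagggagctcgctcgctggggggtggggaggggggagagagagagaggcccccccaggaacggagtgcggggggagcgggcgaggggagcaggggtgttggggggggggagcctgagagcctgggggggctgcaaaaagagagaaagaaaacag
Nr2f2, chr7:70366717-70366996, minus strand: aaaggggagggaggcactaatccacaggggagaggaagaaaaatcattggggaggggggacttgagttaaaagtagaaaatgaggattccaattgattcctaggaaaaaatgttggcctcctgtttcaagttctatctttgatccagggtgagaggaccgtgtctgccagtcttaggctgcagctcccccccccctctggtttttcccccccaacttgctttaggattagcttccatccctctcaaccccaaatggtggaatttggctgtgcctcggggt
The Nr2e1 window held 1 AAGTCA, 7 bases past the start, on the strand of the gene. AAGTCA was searched on both strands and was found in 14.3% of 32851 promoter windows of the same length. None of the 3 windows held AGGTCA on either strand, which 15.3% of the windows did, or the repeat AGGTCANAGGTCA, which contains AGGTCA and was found in 0.0365% of them. A match is a description of the letters and not of binding. GC content was 69.3% for Nr2f1, 50.4% for Nr2f2 and 56.8% for Nr2e1. The tables hold a 2nd start of Nr2f1, whose window is not printed; its GC content was 41.4% and it held none of the motifs.

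The transcripts beside each gene were not among the values that chose it, so they were tested, with p-values adjusted over all probes. Beside Nr2f1, 2 probes of an intergenic noncoding transcript were higher in the VMH and the DMH than in the Arc, the order that Nr2f1 had. This transcript is annotated from 78341864 to 78375825 on chromosome 13 (mm9), on the minus strand as Nr2f1 is, and the 2 probes lie 41.8 kb from the 1st Nr2f1 probe. They are printed whole because they are the only probes within 100 kb of any of the 4 genes that passed the test.
Probe at chr13:78370483-78370542: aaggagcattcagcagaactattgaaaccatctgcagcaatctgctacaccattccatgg
Probe at chr13:78370554-78370613: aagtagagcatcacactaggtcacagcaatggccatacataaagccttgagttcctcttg
The probe at 78370483 read -3.43 and -3.38 in the Arc, 0.25, -1.12 and -0.27 in the VMH, and 0.47, 0.21 and 0.08 in the DMH. Both Arc arrays were far below the other 6, and the VMH and DMH arrays overlapped. It rose by 3.03 ± 0.38 (SE, log2) in the VMH (limma, adjusted p = 0.0195) and by 3.66 ± 0.38 in the DMH (limma, adjusted p = 0.0121). The probe at 78370554 read -2.15 and -1.66 in the Arc, 0.83, 0.36 and 0.56 in the VMH, and 1.60, 0.76 and 1.09 in the DMH, also with the Arc apart from the rest. It rose by 2.49 ± 0.32 in the VMH (limma, adjusted p = 0.0195) and by 3.06 ± 0.32 in the DMH (limma, adjusted p = 0.0114). Between the DMH and the VMH neither passed (limma, adjusted p = 0.485 and 0.449).

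These were 2 of 11 tested probes near Nr2f1 in each comparison with the Arc, where 0.53% of all probes were called higher in the VMH and 0.287% in the DMH. Both read the same annotated transcript at neighbouring positions, so they are not separate observations. In the DMH against the VMH 0 of 11 rose or fell, and 0.388% of all probes rose. The next probe of the same transcript, at 41.9 kb, lay 1.60 and 1.80 higher and missed the test (limma, adjusted p = 0.209 and 0.156). Nearer to Nr2f1, at 14.3 to 14.5 kb, the 2 tested probes of the transcript lay 0.33 and 1.31 higher in the VMH and missed the test (limma, adjusted p = 0.783 and 0.434). So 2 of its 6 probes passed, 5 having been tested, and both lie in its part farther from Nr2f1. The other features near Nr2f1 did not pass: Fam172a, C130051F05Rik, an Ensembl transcript and 2 plus-strand intergenic transcripts. Another plus-strand intergenic transcript was too dim to be tested. A pair of probes at 78343047, on opposite strands at the same bases, both read near 0. Over 109 such pairs on the array the 2 strands' mean levels correlated at 0.673, with a median difference of 1.39, as a description.

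Several calls beside Nr2f1 were lost without single arrays, while the differences kept their sign and moved less. Without single arrays the probe at 78370483 ranged from 2.71 to 3.39 in the VMH and from 3.55 to 3.74 in the DMH. The probe at 78370554 ranged from 2.25 to 2.73 and from 2.81 to 3.30. Leaving out an array also leaves fewer arrays for the test. For the probe at 78370483, the VMH call was lost without Arc replicate 1, Arc replicate 2 or VMH replicate 3 (limma, adjusted p = 0.0713, 0.0577 and 0.0703), and the DMH call without DMH replicate 1 or 2 (0.0592 and 0.0521). Over all settings the adjusted p ran from 0.00984 to 0.0713 and from 0.00679 to 0.0651. For the probe at 78370554, the VMH call was lost without Arc replicate 1 or any 1 VMH array (limma, adjusted p from 0.0519 to 0.0763), and the DMH call was kept whichever single array was left out. Over all settings its adjusted p ran from 0.00818 to 0.0872 and from 0.00529 to 0.0775.

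No probe within 100 kb of the other 3 genes passed in any comparison. Near Nr2f2 8 of 9 probes were tested, with differences from -0.84 to 1.36 between the VMH and the Arc, against 7.08 for Nr2f2 itself. They read LOC624549, B130024G19Rik and 3 intergenic transcripts, and the highest was a probe of a plus-strand intergenic transcript 87.4 kb from the Nr2f2 probe. Near Nr2e1 only Snx3, a sorting nexin, and Ostm1 were measured, and they differed by at most 0.48 in any comparison. Near Nr2f6, 14 probes were tested, for Myo9b, Use1, Ocel1, Ushbp1, Babam1, Ankle1, Abhd8, Mrpl34, Dda1 and 1 feature without a gene name. Ocel1, on the plus strand, has probes on either side of the Nr2f6 probe, and they differed by at most 0.33 in size. Abhd8, 82.9 kb away, lay 1.59 ± 0.27 higher in the VMH than in the Arc and just missed the test (limma, adjusted p = 0.05003).

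**Figure D3:**
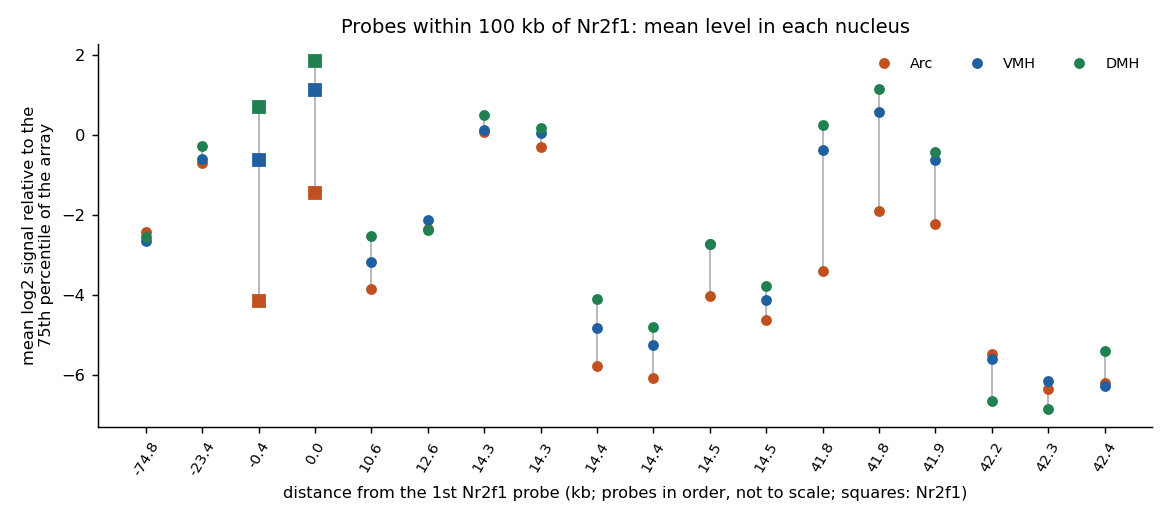
Mean level in each nucleus (log2 signal relative to the array's 75th percentile) of the Nr2f1 probes (squares) and of the 16 other probes within 100 kb (circles), in order along the chromosome by distance from the 1st Nr2f1 probe, spacing not to scale. At 41.8 kb, 2 probes show the Arc mean at -3.40 and -1.90 with the VMH and DMH means between -0.38 and 1.15, and the probes at 14.3 kb lie near 0 in all 3 nuclei.

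COUP-TFs and tailless act with cofactors, of which 23 of the 25 listed were measured. Bcl11a and Prox1 were the 2 that passed the test. Bcl11a (CTIP1) is a zinc finger protein found as a partner of COUP-TFs. It read -3.02 and -2.38 in the Arc, 0.69, 0.30 and 0.58 in the VMH, and 0.59, 0.82 and 0.66 in the DMH. The Arc arrays stood apart and those of the VMH and DMH overlapped. Bcl11a rose 9.34-fold in the VMH over the Arc, by 3.22 ± 0.26 (SE, log2; limma, adjusted p = 0.00289), and 10.5-fold in the DMH, by 3.39 ± 0.26 (limma, adjusted p = 0.00409). Between the DMH and the VMH it differed by 0.16 ± 0.23 (limma, adjusted p = 0.796). Both calls held under all 17 alternative settings. Its 3 measured probes did not read alike: the 2nd rose by 5.04 and 4.67, and the 3rd differed by 0.21 in the VMH and by -0.92 in the DMH (limma over probes, adjusted p = 0.805 and 0.204).

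Prox1, a homeobox repressor that can bind nuclear receptors including COUP-TFII, had a different order: VMH, Arc, DMH. It read -2.39, -3.09 and -2.43 in the VMH, -0.60 and -0.10 in the Arc, and 1.67, 1.43 and 1.41 in the DMH, with no overlap between nuclei. It was 17.6-fold higher in the DMH than in the VMH, by 4.14 ± 0.26 (SE, log2; limma, adjusted p = 0.00103), which held under all 17 settings. It fell by 2.28 ± 0.29 in the VMH against the Arc (limma, adjusted p = 0.0152). That call was lost without Arc replicate 2 or VMH replicate 3 (limma, adjusted p = 0.0594 and 0.0528), and over all settings the adjusted p ran from 0.00841 to 0.0804. The DMH lay 1.86 ± 0.29 above the Arc and missed the test (limma, adjusted p = 0.0509).

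Counted over the list, 1 cofactor rose and 1 fell in the VMH against the Arc, where 0.977% of all genes were called (0.66% higher and 0.317% lower). In the DMH against the Arc 1 rose, where 0.419% of all genes were called (0.244% higher and 0.175% lower). In the DMH against the VMH 1 rose, where 1.23% were called (0.441% higher and 0.787% lower). The median difference of the list was -0.03, 0.16 and 0.09 in these comparisons, beside -0.03, -0.05 and -0.04 over all genes tested. The general corepressors did not pass. Ncor1, the nuclear receptor corepressor, differed by 0.23, 0.81 and 0.59, and Atn1, an atrophin of the kind that binds tailless, by at most 0.06 in size, and none passed. Bcl11b (CTIP2), the relative of Bcl11a, stood at -2.77, -2.42 and -2.93 in the Arc, VMH and DMH and did not pass either. Zfpm1 (FOG1), a zinc finger partner of GATA factors, differed by -1.75 between the DMH and the VMH (limma, adjusted p = 0.0558). These 4 were named after their values were seen.

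Among the other nuclear receptors, 35 of 45 were measured and 6 passed in at least 1 comparison. Rxrg, a retinoid X receptor of the family with which COUP-TFs pair, read 3.45 and 3.10 in the Arc, 3.49, 3.33 and 3.83 in the VMH, and 0.96, 1.06 and 1.10 in the DMH. The DMH was apart from the other 2 nuclei, which overlapped. Rxrg was 5.70-fold lower in the DMH than in the VMH, by a log2 difference of -2.51 ± 0.21 (SE; limma, adjusted p = 0.0032), and 4.72-fold lower than in the Arc, by -2.24 ± 0.23 (limma, adjusted p = 0.0117). The 1st call held under all 17 settings, and the 2nd was lost without DMH replicate 2 (limma, adjusted p = 0.0551, and from 0.00255 to 0.0574 over all settings). The other probe of Rxrg differed by -0.96 and -1.32 and passed in neither comparison (limma over probes, adjusted p = 0.0986 and 0.0716). Rxra and Rxrb did not pass in any comparison, with differences of at most 0.87 in size. They too were named after their values were seen.

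Hnf4g, which belongs to the same receptor subfamily as the retinoid X receptors and COUP-TFs, was undetected in the Arc as Nr2f2 was. It read -6.11 and -6.12 there, not well above background, then -3.75, -2.58 and -2.72 in the VMH and -2.66, -2.64 and -3.43 in the DMH. Hnf4g passed the filter through the VMH and the DMH, where it was high, and was tested against Arc values near the floor of the arrays. It was higher in the VMH (limma, adjusted p = 0.0168) and in the DMH (limma, adjusted p = 0.0301). The folds were 4.68 and 5.04 with each Arc value set to the lowest signal well above background on its array. The measured log2 differences were 3.10 and 3.21, and 0.73 and 0.72 with the normexp correction (limma, adjusted p = 0.164 and 0.144). The VMH call was also lost without Arc replicate 1 or 2 or VMH replicate 2 or 3 (limma, adjusted p from 0.0571 to 0.0709). The DMH call was lost without Arc replicate 1 or 2, VMH replicate 3 or DMH replicate 1 or 2 (limma, adjusted p from 0.0587 to 0.0933).

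The other 4 receptors rested on less. Nr5a2 (LRH-1), a relative of the VMH regulator Nr5a1, read 1.31 and 1.52 in the Arc against -3.06, -5.71 and -2.73 in the VMH. It fell by 5.25 ± 0.90 (SE, log2; limma, adjusted p = 0.0476), with 2 of 3 VMH arrays well above background, so this value rests in part on an undetected signal. It was -4.31 without VMH replicate 2, the undetected array, and -3.57 with the normexp correction. Nr5a2 passed the filter only through the Arc, where it was high. Its other probe differed by -1.76 and did not pass (limma over probes, adjusted p = 0.0514). Leaving out any 1 array other than VMH replicate 2 ended that call (limma, adjusted p from 0.0604 to 0.141). Rorb, a retinoid-related orphan receptor, rose by 2.19 ± 0.28 in the DMH against the VMH (limma, adjusted p = 0.0145). Its other probe differed by -0.052, and with the mean of both probes Rorb differed by 1.07 (limma, adjusted p = 0.0704). The call was also lost without VMH replicate 3 or DMH replicate 2 or 3 (limma, adjusted p = 0.0522, 0.061 and 0.0651), and over all settings the adjusted p ran from 0.00364 to 0.0704. Nr5a1 (SF-1), which defines VMH neurons, fell by 1.31 ± 0.18 (limma, adjusted p = 0.0213) and Thrb, the thyroid hormone receptor beta, by 1.97 ± 0.32 (limma, adjusted p = 0.0337) in the DMH against the VMH. Both calls were lost without any 1 of the 6 VMH and DMH arrays (limma, adjusted p from 0.0631 to 0.092 for Nr5a1 and from 0.0692 to 0.126 for Thrb). The other Thrb probe fell by 4.55 in the DMH against the VMH (limma over probes, adjusted p = 0.000834). It fell by 3.82 in the DMH against the Arc (limma over probes, adjusted p = 0.00402), where the 1st probe differed by -1.09 (limma, adjusted p = 0.199). With the mean of its probes Thrb fell by 3.26 in the DMH against the VMH (limma, adjusted p = 0.00137).

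Counted over the list, 1 other nuclear receptor rose and 1 fell in the VMH against the Arc. In the DMH against the Arc 1 rose and 1 fell, and in the DMH against the VMH 1 rose and 3 fell. The shares of all genes called were those given for the cofactors. Hnf4g was the receptor that rose in each comparison with the Arc, and Nr5a2 the one that fell in the VMH against the Arc. Both passed the filter only through nuclei where they were high, so nothing is read from these counts. The list's median difference was 0.27 between the VMH and the Arc, 0.01 between the DMH and the Arc and -0.26 between the DMH and the VMH. Without single arrays the counts ranged from 0 to 1, from 0 to 3 and from 1 to 5.

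**Figure D4:**
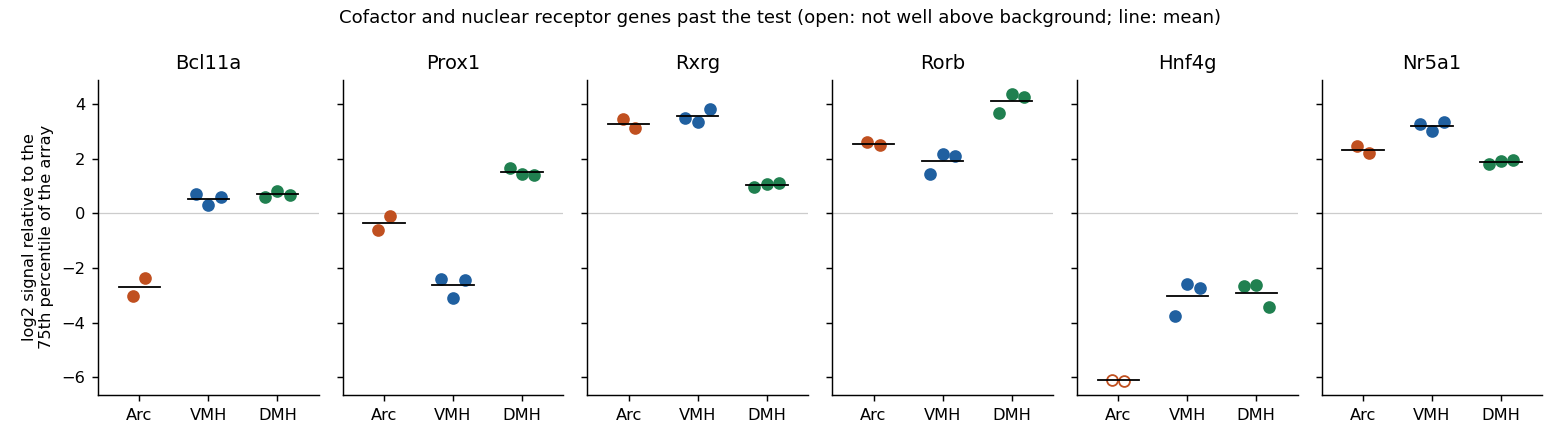
Level on each array (log2 signal relative to the array's 75th percentile) of the 2 cofactors and of 4 of the 6 other nuclear receptors that passed the test in at least 1 pair of nuclei, with open points for values not well above background and a line at the mean. Bcl11a and Hnf4g are lowest in the Arc, Prox1 is highest in the DMH, and Rxrg lies between 0.96 and 1.10 in the DMH and above 3 elsewhere.

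Of 22 genes reported elsewhere as regulated by COUP-TFs or tailless, 20 were measured and 1, Th, passed the test. It passed in the VMH against the Arc, where 0.977% of all genes were called, and in the DMH against the VMH, where 1.23% were. Th encodes tyrosine hydroxylase, the first enzyme of dopamine synthesis, and is also on the list of Arc markers. It read 4.34 and 3.95 in the Arc, 1.86, 2.54 and 2.08 in the VMH, and 3.42, 3.70 and 3.99 in the DMH. The VMH was below both other nuclei, which overlapped. Th fell by 1.99 ± 0.29 (SE, log2) in the VMH against the Arc (limma, adjusted p = 0.0258) and rose by 1.55 ± 0.26 in the DMH against the VMH (limma, adjusted p = 0.0387). The 2nd call was lost without any 1 array (limma, adjusted p from 0.0561 to 0.133). The 1st was lost without Arc replicate 1 or 2, VMH replicate 1 or 3 or DMH replicate 2 (limma, adjusted p from 0.0539 to 0.107).

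In the DMH against the Arc 0 of the 20 passed, where 0.419% of all genes were called, and the smallest p-values were those of Oxt and Lhx2. Oxt, the oxytocin precursor, differed by -4.27 ± 0.86 (SE, log2) in the DMH (limma, adjusted p = 0.0962), and Lhx2, a homeobox gene of forebrain and eye, by -4.59 ± 1.01 (limma, adjusted p = 0.11). Lhx2 passed the filter only through the Arc and was well above background on 1 of 3 DMH arrays, so its value is no exact difference. At an unadjusted p under 0.05, 4560 of all genes differed in that comparison. Nrp2, a semaphorin receptor known as a COUP-TFII target, differed by -0.25, 0.19 and 0.44. Gfap and Aqp4, astrocyte genes repressed by tailless in stem cells, differed by at most 0.40 in any comparison, and none of these 3 passed. They were named after their values were seen. The median difference of the 20 genes was -0.14, 0.02 and -0.04 in the 3 comparisons.

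The pattern over the 8 arrays was compared between each of the 4 genes and 14758 named genes. The measure was the root mean square difference between log2 levels, each taken from the gene's own mean. Nearest to Nr2f1 were Htr2c, a serotonin receptor, at 0.267, and Islr2, a membrane protein of axons, at 0.303. Bcl11a followed at 0.421, Uba6, a ubiquitin-activating enzyme, at 0.440, and Kcnip4, a potassium channel partner, at 0.444, where the median of all genes was 1.37. Htr2c read -0.85 and -1.33 in the Arc, 1.29, 1.19 and 1.15 in the VMH, and 1.75, 1.80 and 1.31 in the DMH. The Arc arrays stood apart, as for Nr2f1. The highest VMH array, at 1.29, lay just under the lowest DMH array, at 1.31, where Nr2f1 left a gap of 0.57. Bcl11a, named above from the list of cofactors, was thus the third nearest to Nr2f1. Its place restates the differences from the Arc for which it was named, on these same arrays. It rests on a single probe, and the 3 measured probes of Bcl11a did not read alike.

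The nearest to Nr2f2 were farther from it. Gpr39, a zinc-sensing receptor, stood at 1.04, Phyhipl at 1.20, Alox12, a lipoxygenase, at 1.30, Mycl, a Myc family factor, at 1.32 and Cdh7, a cadherin, at 1.38, with a median of 3.01 over all genes. All 5 were undetected on both Arc arrays and detected on all 6 others, as Nr2f2 was. Nearest to Nr2e1 were Fbxl7, an F-box protein, at 0.755, Ppp1r17, a phosphatase inhibitor, at 0.831, and Ebf3, a transcription factor, at 0.882. Pex2, a peroxisome protein, at 0.914 and Tekt1, a protein of cilia, at 0.935 came next, with a median of 2.29. Ppp1r17 is a listed DMH marker and read -2.18 and -2.07 in the Arc, -2.97, -3.27 and -2.72 in the VMH, and 2.71, 1.52 and 1.59 in the DMH. Ebf3 and Pex2 were undetected in both the Arc and the VMH, as Nr2e1 was.

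Nr2f6 had close neighbours: Foxj3, a forkhead factor, at 0.094, Acaa1b, a peroxisomal thiolase, at 0.104, Rmnd5a at 0.105, Kbtbd4 at 0.107 and Synpr, a synaptic vesicle protein, at 0.110, with a median of 0.623. All 5 were, like Nr2f6, highest on DMH replicate 1 and lowest on Arc replicate 2. The DMH replicate 1 array also had the highest 75th percentile, 3042 intensity units, and its part in this pattern was not tested. Between the 4 genes themselves the distance ran from 1.07 for Nr2f1 and Nr2f6 to 2.95 for Nr2f2 and Nr2e1. These distances share the arrays and their scaling, and for undetected genes they include values not well above background.

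**Figure D5:**
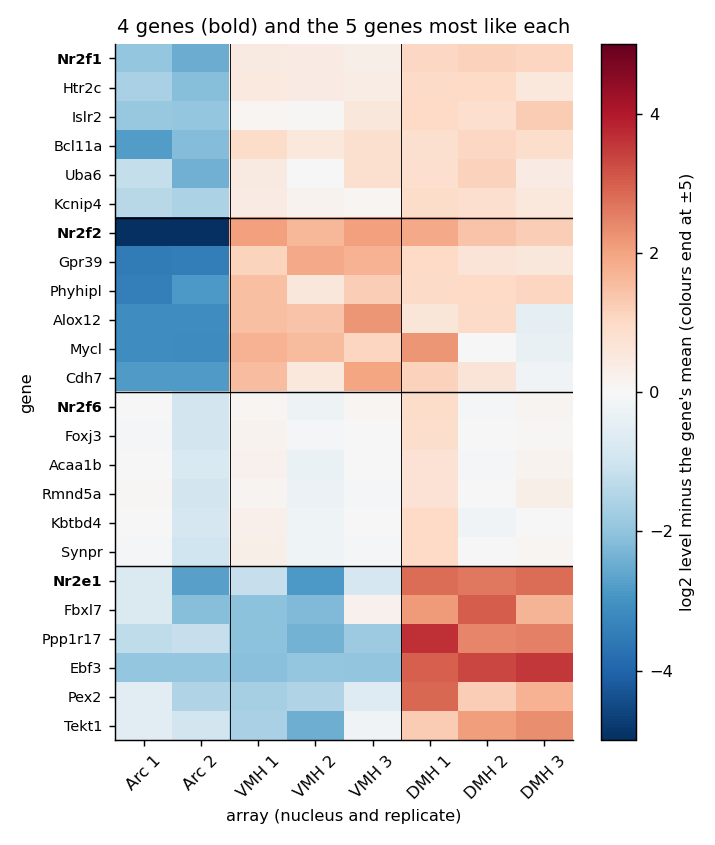
Level of the 4 genes (bold) and of the 5 genes most like each on the 8 arrays, as the log2 difference from the gene's own mean (colours end at ±5). The block of Nr2f2 is low on both Arc arrays, that of Nr2e1 high on the 3 DMH arrays, and that of Nr2f6 nearly without colour except on DMH replicate 1 and Arc replicate 2.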

How the data were processed

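The deposited files are the scanner tables of 8 one-colour Agilent arrays (Cy5), all on 1 slide. Per the file headers, the authors extracted red-channel intensity with Feature Extraction 11.5.1.1, which subtracted the background, removed spatial trends and set surrogate values for dim spots; positions are in mm9. The signal over background and the number of arrays limit the precision. From the processed intensity of 59305 spots, log2 values were taken minus the array's 75th percentile; outlier spots were left out and spots of a probe averaged. Of 55681 probes, 41491 passed the filter, and the probe with the highest mean stood for a gene. limma 3.58.1 (R 4.3.3, with data.table, version 1.17.8) was fitted to all 8 arrays with a mean per nucleus and Benjamini-Hochberg adjustment over all genes in each pair of nuclei, at 0.05. The 3 comparisons share arrays. Probes beside the genes were tested in the same fit over all probes, because the gene fit keeps 1 probe per gene. The SE of the 4 genes is from the spread within nuclei. On data simulated for the DMH against the VMH with 27434 genes, limma recovered 8, 34, 47 and 42 of 50 genes changed by 1, 2, 3 and 4 on the log2 scale. Named were all probes of the 4 genes and all features within 100 kb, up to 4 genes past the test per list and pair of nuclei (the 2 smallest p-values where none passed), and the 5 most alike genes, among those with a RefSeq symbol that is no clone or predicted name; others are said to be named after their values were seen. The members and the lists were chosen with earlier results of these data known. The alternatives were normexp with an offset of 50, quantile normalization, another percentile, 2 other filters, the mean of probes and a trended robust fit. Further alternatives were the replicate number or the slide row as a block, and leaving out each array. The series' table of values processed by the submitters was left out.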

Additional observations from a re-analysis of the deposited data

How the results depend on the processing

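Alternatives moved counts more than directions. The 3 counts of genes called (VMH against Arc 268, DMH against Arc 115, DMH against VMH 337) became 164, 41 and 200 when dim probes were not filtered and 163, 58 and 167 when the slide row was a block. The first 2 became 408 and 234 with normexp, and the second 227 with the trended robust fit and 207 with the mean of probes. Without single arrays they ranged from 92 to 339, from 39 to 241 and from 112 to 285. Same-numbered arrays deviated together at correlations from 0.0733 to 0.185, and not all exceeded 0.1, so the numbers were not taken to pair the arrays. With the replicate block the 3 counts were 74, 32 and 163.

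The counts of other nuclear receptors (2, 2 and 4) became 0, 0 and 2 with the replicate block and 1, 5 and 7 with normexp. In the 2 comparisons with the Arc they were 1 and 1 with no filter and with the filter over all arrays. They were 5 in the DMH against the Arc with the trended robust fit and with the mean of probes, and under the slide row 1 in the VMH against the Arc and 2 in the DMH against the VMH. Without single arrays they ranged from 0 to 1, 0 to 3 and 1 to 5. The counts of cofactors (2, 1 and 1) were 1 in the VMH against the Arc with the replicate block. In the DMH against the Arc they were 2 with normexp, quantile normalization, the all-array filter and the mean of probes, and 3 with the trended robust fit, and in the DMH against the VMH 2 with normexp, the all-array filter and the trended robust fit. Without single arrays they were 1 to 2, 1 and 1. The counts of regulated genes (1, 0 and 1) were 4 and 2 in the comparisons with the Arc with normexp, 2 in the VMH against the Arc with quantile normalization, 0 in the VMH against the Arc and in the DMH against the VMH under the replicate block, and 0 in the DMH against the VMH with no filter and the slide row. Without single arrays they were 0 to 2, 0 to 1 and 0.

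For the 4 genes, normexp gave Nr2f1 (1st probe) differences from the Arc of 2.18 and 2.87, its 2nd probe 1.92 and 3.07, Nr2f2 3.83 and 3.47, and Nr2e1 2.12 in the DMH against the Arc and 2.26 against the VMH. The mean of both Nr2f1 probes gave 3.06, 4.08 and 1.02. Without single arrays, Nr2f1 ranged from 2.33 to 2.85, 3.03 to 3.55 and 0.65 to 0.74, and its 2nd probe from 3.12 to 3.95, 4.45 to 5.29 and 0.92 to 1.63. Nr2f2, whose Arc values are both not well above background, ranged from 7.01 to 7.22, 6.47 to 6.82 and -0.61 to -0.27. Nr2f6 ranged from -0.021 to 0.87, 0.34 to 1.23 and 0.07 to 0.56, and Nr2e1 from -0.91 to 1.08, 3.46 to 5.45 and 3.75 to 4.76. The filter over all arrays left no value for Nr2f2, Nr2e1 and the 2nd Nr2f1 probe. With the replicate block these named calls were lost (limma): Prox1 in the VMH (adjusted p = 0.0804) and Rxrg in the DMH (0.0574) against the Arc, Hnf4g (0.0753 and 0.0859), Nr5a1 (0.0577), Thrb (0.0581), Nr5a2 (0.0501), Th (0.0944 and 0.1), and both probes beside Nr2f1 (from 0.0651 to 0.0872). The block changed none of the other named calls, those of Bcl11a, Rorb, and Prox1 and Rxrg in the DMH against the VMH. The slide row ended the calls of Nr5a1 (0.0623), Thrb (0.0886), Nr5a2 (0.0897) and Th in the DMH against the VMH (0.0567). Leaving dim probes unfiltered ended those of Hnf4g in the DMH (0.0551), Thrb (0.0592), Nr5a2 (0.0823) and Th in the DMH against the VMH (0.063). The cause of these changes was not tested. Signals near background limit Nr2f2, Nr2e1, the 2nd Nr2f1 probe and Hnf4g, whose low values are in part or in whole not well above background.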
